A study of Mus musculus with 10 samples.

Results

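The fibroblast growth factor (FGF) system was examined through 33 genes of the 21868 in the count table. They were taken by symbol: every gene named Fgf with a number, the receptor genes Fgfr1 to Fgfr4, and the feedback and target genes Spry1, Spry2, Spry4, Spred1, Spred2, Dusp6, Etv4 and Etv5. These are 17 secreted ligands, 4 intracellular FGFs, 4 receptors and 8 feedback or target genes; Fgf2 was not analysed here. The RNA came from mouse embryonic stem (ES) cells that had been differentiated as embryoid bodies in serum without leukaemia inhibitory factor and sorted for Flk1. Flk1, the product of Kdr, marks early mesoderm from which blood and endothelium arise. One group carried both Ldb1 alleles (Ldb1+/+, WT) and the other neither (Ldb1-/-, KO). No agent was given to either group, and the labels give neither the day of the RNA cultures nor the number of ES lines or cultures behind a genotype, so genotype and cell line cannot be told apart.

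Each genotype had 4 RNA-seq libraries with 11258493 to 13483294 counted reads. Libraries 1 and 2, and likewise 3 and 4, differed by barely more than sampling noise (mean chi-square per gene 1.065 to 1.101), while the other pairs within a genotype were far apart (12.8 to 28.5). Each such pair was therefore summed and counted as 1 sample, called A (libraries 1 and 2) or B (libraries 3 and 4), which leaves 2 samples per genotype. Levels are CPM, read counts relative to library size after TMM scaling, and 4 values given together stand in the order WT A, WT B, KO A and KO B. The p-values measure only the spread between A and B, whose origin the labels do not give. Kdr stood at 439.5, 605, 236 and 78.6 CPM. Ldb1 was read in every library, with sample levels of 105, 113, 96.1 and 80.1 CPM; which exons the knockout removes is not given, so these reads check nothing.

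Secreted FGFs bind receptor tyrosine kinases together with heparan sulphate, and the receptors signal through RAS to the kinase ERK. ERK in turn switches on its own brakes: Dusp6 dephosphorylates ERK, and Sprouty (Spry) and Spred proteins block RAS and RAF activation. The ETS factors Etv4 and Etv5 are standard transcriptional targets of the pathway. In the mouse embryo Fgf4 is made by the pluripotent epiblast, and Fgf8 and Fgfr1 are needed for mesoderm cells to leave the primitive streak.

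Several members differed more between the WT samples than between the genotypes. Fgf3, Fgf10 and Fgf15 were abundant in WT B alone of the 4 samples, and Fgf4 and Etv5 were highest in WT A and lowest in WT B. Against the mean of both WT samples 0 members passed the test. Dusp6 was the member that passed against each WT sample taken alone in the same direction, with KO levels higher by a log2 of 1.04 (SE 0.22) and 1.13 (SE 0.21), as 3.46% of all genes did in either direction. Both comparisons rest on 1 WT sample and share the KO samples, and with 1 KO sample left out, A or B, the edgeR adjusted p of Dusp6 was 0.319 or 0.716.

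The ligand with the widest range was Fgf3, known in the mouse for its part in the inner ear and the hindbrain. Its 8 libraries stood at 0.517 and 1.02 CPM (WT 1 and 2), 32.9 and 35.6 CPM (WT 3 and 4), 1.48 and 1.63 CPM (KO 1 and 2) and 0.393 and 0.775 CPM (KO 3 and 4). WT B thus lay 44.6-fold above WT A (log2 5.48, 95% counting interval 4.81 to 6.24, 908 against 18 reads), while KO A (36 reads) lay above and KO B (15 reads) below WT A. Counting intervals cover counting error only.

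Fgf15, the mouse counterpart of the human hormone FGF19, had the same shape. It stood at 1.12 and 1.36 CPM in WT libraries 1 and 2, 24.8 and 22.2 CPM in WT libraries 3 and 4, 2.18 and 1.29 CPM in KO libraries 1 and 2, and 0.943 and 0.775 CPM in KO libraries 3 and 4. WT B was 19.0-fold above WT A (log2 4.25, interval 3.71 to 4.84). Fgf10, a ligand of Fgfr2 needed for limb and lung buds and made by the second heart field, stood at 7.49 and 7.62 CPM in WT libraries 1 and 2 and 80.8 and 78.3 CPM in WT libraries 3 and 4. Its KO libraries held 10.5, 12.2, 5.50 and 4.88 CPM. For all 3 genes the WT B libraries were high and the other 6 libraries low, with no overlap.

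Fgf4, the epiblast ligand, ran the other way. Its libraries stood at 72.7 and 71.4 CPM in WT libraries 1 and 2, 7.99 and 8.24 CPM in WT libraries 3 and 4, 26.3 and 26.1 CPM in KO libraries 1 and 2, and 32.1 and 31.7 CPM in KO libraries 3 and 4. WT A was 8.88-fold above WT B (log2 of B over A -3.15, interval -3.36 to -2.95). Both KO samples fell between the WT samples and differed from each other by a log2 of 0.28 (interval 0.13 to 0.44).

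Fgf3, Fgf4 and Fgf15 are consecutive protein-coding genes of chromosome 7 in RefSeq (assembly GRCm38.p6), in that order, so the gene that stood low in WT B lies between 2 that stood high there. The start regions of Fgf3 and Fgf4 are shown as the neighbours of opposite pattern. That of Fgf10 is shown as the unlinked gene that shares the pattern of Fgf3, and no window was at hand for Fgf15. The regions run from 250 bases before to 50 after the start (RefSeq windows, GRCm38.p6, plus strand). They lie at chr7:144838362-144838661, chr7:144861136-144861435 and chr13:118714449-118714748. Capitals mark matches, on either strand, to 5 short motifs. The letters searched were CCGGAAG for ETS factors, AGATAA for GATA factors and CTTTGA for TCF/LEF factors. They were TCACACC for T-box factors and CAGCTG for the E-box.
Fgf3: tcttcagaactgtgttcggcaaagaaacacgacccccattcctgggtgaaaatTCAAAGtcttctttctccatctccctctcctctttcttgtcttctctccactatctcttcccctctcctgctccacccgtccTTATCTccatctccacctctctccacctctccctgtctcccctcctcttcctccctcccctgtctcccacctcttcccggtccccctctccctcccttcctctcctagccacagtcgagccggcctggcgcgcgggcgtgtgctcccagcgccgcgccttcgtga
Fgf4: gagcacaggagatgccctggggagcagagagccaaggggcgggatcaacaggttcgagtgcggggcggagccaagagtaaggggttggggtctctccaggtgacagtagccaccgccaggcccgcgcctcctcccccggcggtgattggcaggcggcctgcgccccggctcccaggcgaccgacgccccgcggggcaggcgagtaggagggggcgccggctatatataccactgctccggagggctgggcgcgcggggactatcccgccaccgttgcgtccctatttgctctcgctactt
Fgf10: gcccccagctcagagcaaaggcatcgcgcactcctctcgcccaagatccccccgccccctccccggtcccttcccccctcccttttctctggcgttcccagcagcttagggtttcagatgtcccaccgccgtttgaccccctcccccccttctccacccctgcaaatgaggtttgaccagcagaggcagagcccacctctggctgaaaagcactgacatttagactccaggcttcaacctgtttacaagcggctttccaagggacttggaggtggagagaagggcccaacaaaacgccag
The Fgf3 window held the TCF/LEF letters 197 bases and the GATA letters 115 bases upstream of the start, both on the minus strand and not overlapping. The Fgf4 and Fgf10 windows held none of the 5 motifs. Among all 32851 RefSeq windows, 16% held the TCF/LEF letters, 11.2% the GATA letters, 8.86% the ETS letters, 3.98% the T-box letters and 16.3% the E-box letters. Of the 32 windows of 24 member genes, 3 held TCF/LEF letters, 3 GATA, 0 ETS, 2 T-box and 7 E-box. A match is only a match of letters.

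Fgf8, the streak ligand, and Fgf5, a marker of the epiblast after implantation, moved less. Fgf8 stood at 4.05 and 3.73 CPM in WT libraries 1 and 2, 13.7 and 15.1 CPM in WT libraries 3 and 4, 7.31 and 7.55 CPM in KO libraries 1 and 2, and 5.97 and 4.57 CPM in KO libraries 3 and 4. Both KO samples lay between the WT samples. Fgf5 stood at 13.7 CPM in WT A, 23.8 CPM in WT B, 24.9 CPM in KO A and 11.2 CPM in KO B, so here the split ran within each genotype and in opposite senses. Fgf17, of the same subfamily as Fgf8, was lowest in WT B at 0.679 CPM (18 reads) and stood at 2.22 CPM in WT A, 3.46 CPM in KO A and 9.68 CPM in KO B. Its KO samples lay above its WT samples without overlap, yet differed from each other 2.80-fold.

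The other secreted ligands were low. Fgf1, Fgf16 and Fgf22 lay between 3.46 and 9.20 CPM in every sample, with Fgf1 at 9.09, 7.93, 9.20 and 6.52 CPM. Fgf23, a hormone of phosphate balance made in bone, was near the detection limit at 1.67, 1.28, 0.691 and 0.781 CPM (16 to 39 reads a sample). Fgf6 reached 1.48 CPM and Fgf7 1.08 CPM. Fgf9, Fgf18, Fgf20 and Fgf21 stayed under 1 CPM in every sample, with highest values of 0.312, 0.811, 0.259 and 0.389 CPM. Fgf9 had 0 reads in WT A, which allows up to 3, and 3, 2 and 8 reads in WT B, KO A and KO B.

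**Figure D1:**
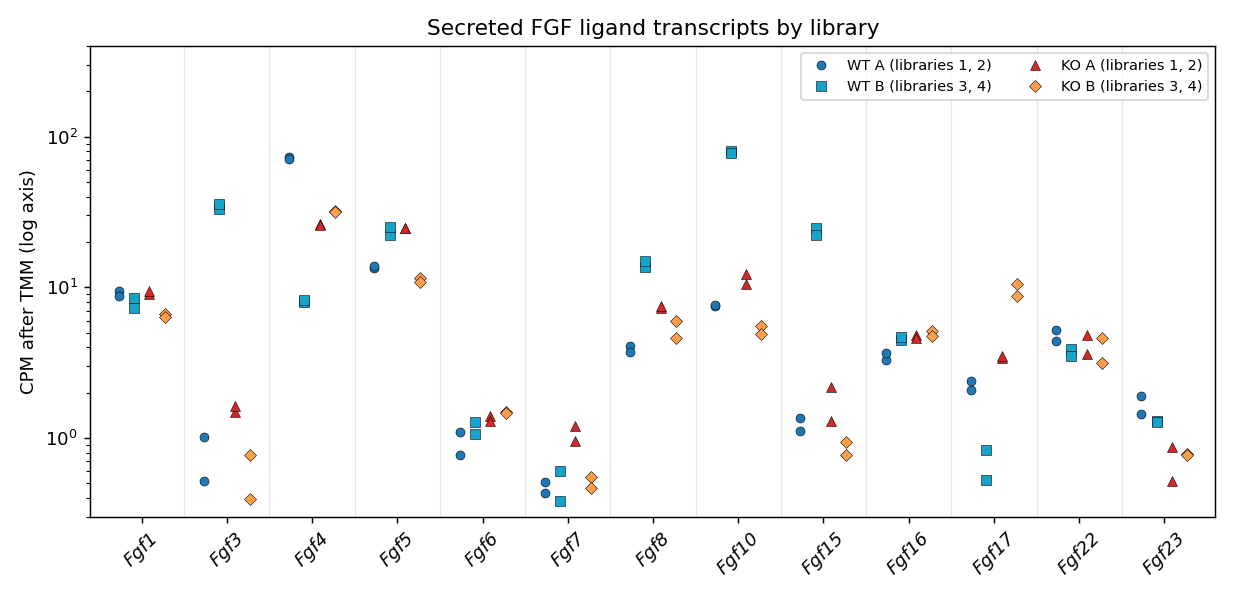
CPM after TMM on a log axis for the 13 secreted ligands that reached 1 CPM in at least 1 sample; each symbol is 1 library, and the 2 libraries of a sample share a colour and shape. Fgf3, Fgf10 and Fgf15 were high in WT B alone (34.3, 79.6 and 23.5 CPM in the summed sample), and Fgf4 was highest in WT A (72.0 CPM).

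Levels of different genes were compared per kilobase of the transcript length given in the table. The 17 secreted ligands together gave 44.9 CPM per kb in WT A, 81.5 in WT B, 39.6 in KO A and 34.5 in KO B. In WT A, Fgf4 made up 53.0% of this sum and Fgf5 12.2%. In WT B the leading ligands were Fgf10 with 25.9%, Fgf3 with 18.3%, Fgf15 with 16% and Fgf8 with 15.2%, and Fgf4 gave 3.29%. In the KO samples the order was another: Fgf5 (25.1%), Fgf4 (21.8%) and Fgf8 (16.2%) led in KO A, and Fgf4 (30.5%), Fgf17 (16.6%) and Fgf8 (13.2%) in KO B. These shares are of RNA per length in bulk samples, in which fewer cells of a type and less RNA per cell cannot be told apart.

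**Figure D2:**
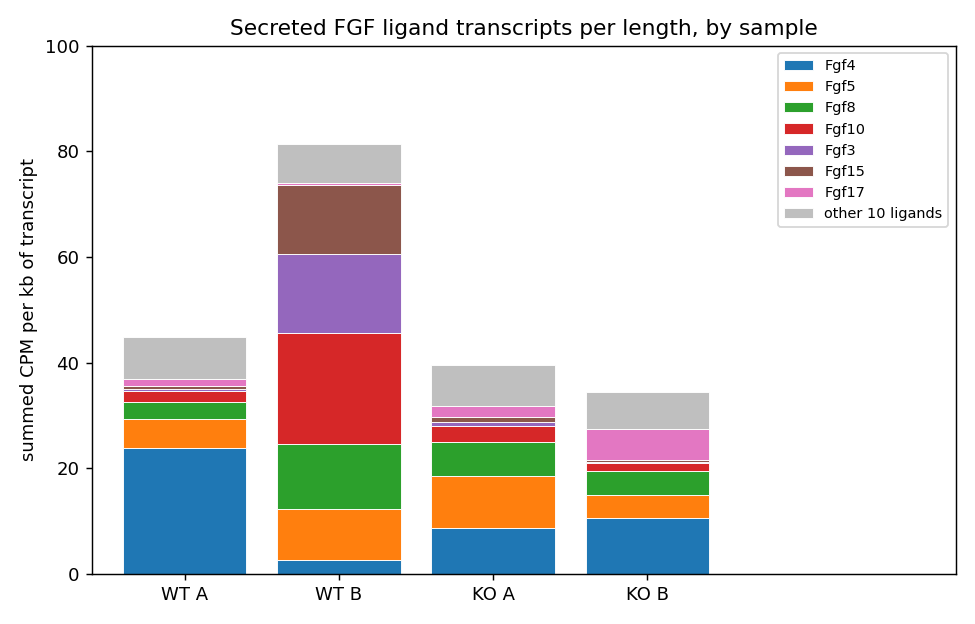
Stacked bars of CPM per kb of transcript for the 17 secreted ligands in each sample, 1 bar per sample, starting at 0. The WT B bar reaches 81.5 and is mostly Fgf10, Fgf3, Fgf15, Fgf8 and Fgf5, whereas Fgf4 makes up 53.0% of the WT A bar at 44.9; the KO bars reach 39.6 and 34.5.

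Markers of other cell states differed between the same samples. Of 15 tested primitive streak and early mesoderm markers, 14 stood higher in WT B than in WT A, with a median log2 of 2.39, and their summed level was 70.0, 381, 124 and 83.3 CPM. Eomes, a T-box factor of the streak, stood at 9.65, 116.5, 27.8 and 8.94 CPM, and Mesp1 at 0.256, 18.5, 0.778 and 0.117 CPM. Msgn1, a paraxial mesoderm factor, had 0 reads in WT A, KO A and KO B. All 14 pluripotency markers stood lower in WT B than in WT A, with a median log2 of -2.27 and summed levels of 2410, 636, 1120 and 1400 CPM. Among them Pou5f1, the gene of Oct4, stood at 281, 81.3, 257 and 253 CPM and Dppa5a at 630, 75.0, 209 and 356 CPM. All 12 cardiac and smooth muscle markers stood higher in WT B than in WT A (median log2 0.57). Their summed level of 656, 1050, 1160 and 2180 CPM was nevertheless highest in KO B. Most of that KO B sum came from Acta2, at 346, 383.5, 514 and 1025 CPM, and Tagln, at 156, 210, 377 and 807.5 CPM. Hand1, at 9.90, 125.7, 6.87 and 6.36 CPM, and Hand2, at 0.982, 33.2, 1.25 and 1.29 CPM, were highest in WT B. The list's median KO over WT log2 was 0.07. Of the other marker lists, 11 of 12 endothelial, 6 of 10 visceral endoderm and 4 of 5 neuroectoderm markers stood lower in WT B. Of 13 blood markers 9 stood higher there. Within KO, 12 of 15 streak markers stood lower in B, and 13 of 14 pluripotency and 8 of 12 muscle markers higher. All 12 endothelial and all 10 visceral endoderm markers stood lower in KO B, as did 9 of 13 blood and 3 of 5 neuroectoderm markers. The endothelial markers thus shifted alike in both genotypes. The share of all genes higher in B was not counted. What part the cell states behind these markers had in the FGF values was not tested.

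The receptors are led by Fgfr1, which made up 74.8% and 74.1% of the summed receptor level per kb in WT A and B and 84.4% and 84.9% in KO A and B. Its libraries stood at 109 and 120 CPM in WT libraries 1 and 2, 232.1 and 231.6 CPM in WT libraries 3 and 4, 271.5 and 279 CPM in KO libraries 1 and 2, and 286 and 287 CPM in KO libraries 3 and 4. WT A was thus the low sample, 2.02-fold below WT B, and both KO samples lay above both WT samples. Fgfr1 lies on chromosome 8, whose genes as a whole had a median KO over WT log2 of 0.25.

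Fgfr2, the receptor of Fgf10 in its epithelial form, stood at 23.7 CPM in WT A, 55.7 CPM in WT B, 42.3 CPM in KO A and 37.8 CPM in KO B, the KO samples between the WT ones. Fgfr3, best known for restraining bone growth, stood at 9.73, 21.5, 7.26 and 9.44 CPM in the same order, with WT B high and the other 3 samples close together. Fgfr4 was rare, at 2.60, 0.830, 0.778 and 1.95 CPM (18 to 61 reads a sample). All 4 receptors differed between WT A and WT B beyond counting error, Fgfr1, Fgfr2 and Fgfr3 being higher and Fgfr4 lower in WT B.

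Among the feedback genes Dusp6 had the widest gap between the nearest WT and KO samples. Its libraries stood at 48.6, 46.5, 44.2 and 44.3 CPM in WT 1 to 4 and 84.2, 81.7, 112.0 and 111.2 CPM in KO 1 to 4. WT A and WT B differed by a log2 of -0.10, within counting error (-0.22 to 0.02), and KO B lay a log2 of 0.43 (0.34 to 0.51) above KO A. The KO mean was 97.3 ± 20.3 CPM against 45.9 ± 2.34 CPM in WT (SD, n = 2). The start region of Dusp6 (chr10:99262981-99263280, GRCm38.p6, plus strand), shown because this gene passed against each WT sample, held none of the 5 motifs and so has no capitals.
Dusp6: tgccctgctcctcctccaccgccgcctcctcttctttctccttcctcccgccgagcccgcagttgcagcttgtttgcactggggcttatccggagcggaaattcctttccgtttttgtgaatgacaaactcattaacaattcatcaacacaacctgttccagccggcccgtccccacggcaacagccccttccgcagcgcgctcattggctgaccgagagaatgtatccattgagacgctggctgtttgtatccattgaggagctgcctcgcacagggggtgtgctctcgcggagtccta

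Etv5 followed Fgf4 rather than Dusp6. It stood at 217 and 222 CPM in WT libraries 1 and 2, 76.1 and 81.5 CPM in WT libraries 3 and 4, 125 and 117 CPM in KO libraries 1 and 2, and 119 and 121.5 CPM in KO libraries 3 and 4. The KO samples differed by a log2 of -0.01 (interval -0.08 to 0.06) and lay between WT A and WT B, which differed 2.78-fold. Its relative Etv4 had the opposite order in WT, with 9.60 CPM in WT A and 15.8 CPM in WT B, and was lower in both KO samples at 6.31 and 5.74 CPM. Etv4 lies on chromosome 11, whose genes had a median KO over WT log2 of -0.47; with that median subtracted its log2 fold change was -0.61 rather than -1.08.

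The Sprouty and Spred genes varied less. Spry1 stood at 41.3, 28.7, 38.0 and 39.3 CPM, and Spry2 at 34.1, 31.2, 34.5 and 37.3 CPM. Spry4 stood at 16.2, 13.4, 13.3 and 12.4 CPM. Spred1 was low in WT A at 54.4 CPM and close together in the other samples at 88.2, 91.8 and 86.3 CPM. Spred2 stood at 45.1, 43.3, 37.0 and 37.0 CPM; on chromosome 11, its log2 fold change of -0.26 became 0.22 with the chromosome median subtracted. The feedback genes of 1 pathway thus did not all share a pattern. Dusp6 was higher in both KO samples (edgeR adjusted p = 0.105), and Spred1 was lowest in WT A. Etv5 and Spry1 were lowest in WT B, as were Dusp6 and Spry2, whose WT samples differed within counting error.

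**Figure D3:**
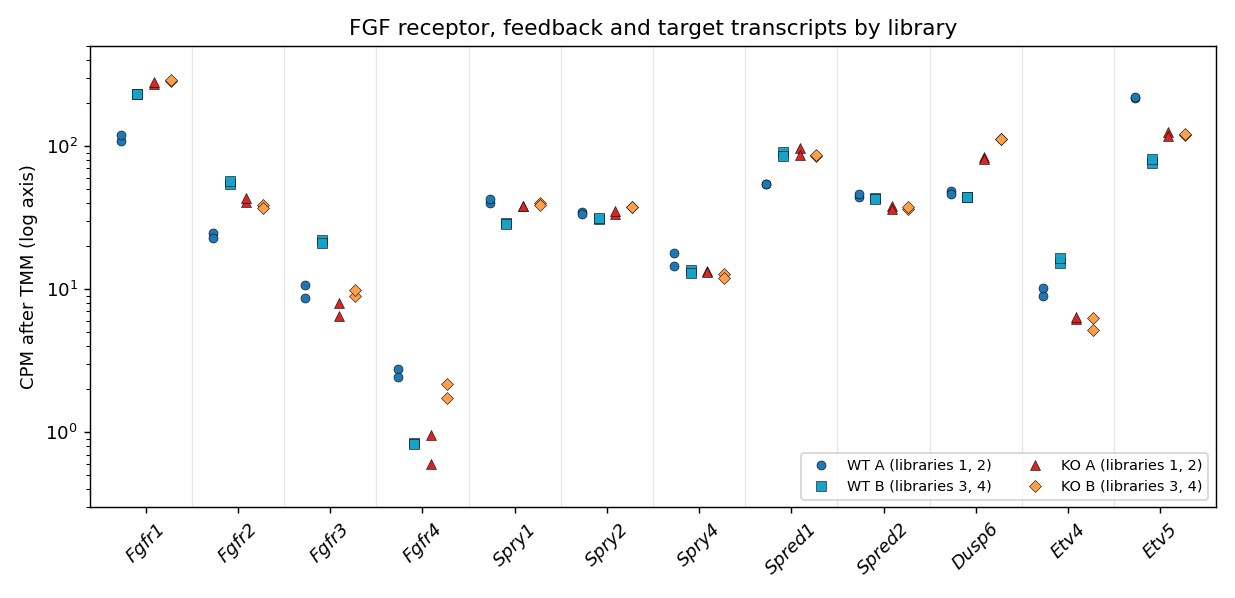
CPM after TMM on a log axis for the 4 receptors and 8 feedback or target genes; each symbol is 1 library. Dusp6 lies at 44.2 to 48.6 CPM in the WT libraries and 81.7 to 112.0 CPM in the KO libraries, while Etv5 is highest in WT A and lowest in WT B with KO between.

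The intracellular FGFs, which bind voltage-gated sodium channels and are not secreted, were low in all samples. Fgf11 stood at 8.92, 7.32, 7.04 and 7.45 CPM; it lies on chromosome 11, and its log2 fold change of -0.16 became 0.31 with the chromosome median subtracted. Fgf13 stood at 4.48, 5.28, 6.83 and 8.27 CPM. Fgf14 lay between 1.05 and 2.03 CPM, and Fgf12 stayed under 1 CPM at up to 0.792 CPM. For Fgf13 both KO samples exceeded both WT samples (log2 fold change 0.63, SE 0.26, edgeR adjusted p = 0.335).

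The difference between the samples of a genotype was then set beside all genes. Of the 29 members with enough reads to be tested, 11 differed at least 2-fold between WT B and WT A (7 higher and 4 lower in B), against 9.74% of the 16785 tested genes. In KO the number was 7 (3 higher and 4 lower in B), against 3.81% of genes. The median absolute log2 difference of the members was 0.52 in WT and 0.28 in KO, beside 0.25 and 0.21 over all tested genes. With 1 sample on each side these differences have no replicate check. Every pairing of a single B library with a single A library in WT gave a log2 between 5.02 and 6.11 for Fgf3, 3.36 and 3.43 for Fgf10, 4.04 and 4.47 for Fgf15, and -3.19 and -3.12 for Fgf4.

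**Figure D4:**
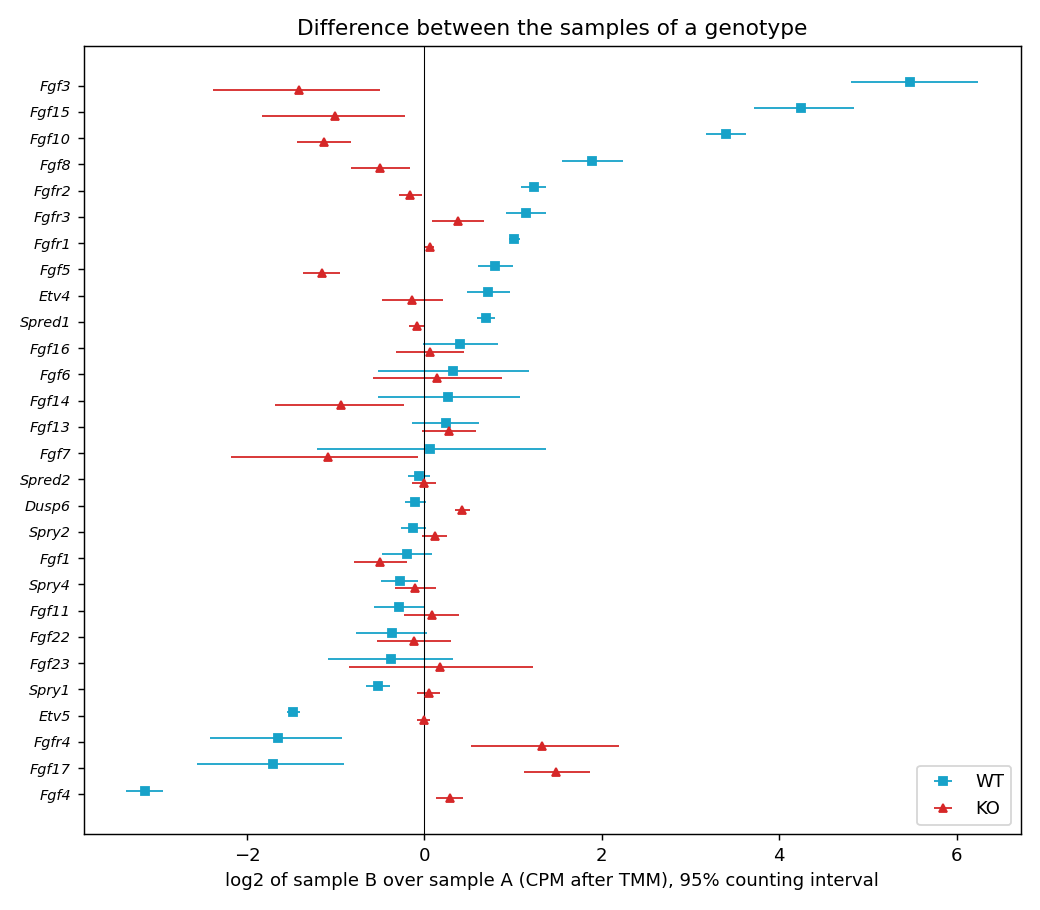
Log2 of sample B over sample A within WT (squares) and within KO (triangles) for the 28 members that reached 1 CPM, with 95% exact counting intervals. Fgf3, Fgf15 and Fgf10 stand far to the right in WT (5.48, 4.25 and 3.40) and left of 0 in KO (-1.41, -1.01 and -1.13), and Fgf4 far to the left in WT (-3.15).

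KO was compared with WT by edgeR's quasi-likelihood test across all genes, its p-values adjusted after Benjamini and Hochberg and called under 0.05. Over all genes 31 passed (21 lower and 10 higher in KO), which is 0.185%, and 0 of the 29 tested members did; limma-voom also called 0 members. At an unadjusted p under 0.05, 2 members stood lower (Etv4 and Fgf23) and 2 higher (Dusp6 and Fgf17), against 15.5% of all genes, so their share was near the background. KO and WT samples did not overlap for 13 of the 29 members, again near the 45.6% of all genes. The median log2 fold change of the tested members was -0.12 and that of all genes -0.01. A single value compared between 2 and 2 samples cannot give an exact two-sided permutation p below 0.333.

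Among these members Dusp6 had the smallest p, with a log2 fold change of 1.08 (SE 0.18, edgeR adjusted p = 0.105). Etv4 followed at -1.08 (SE 0.30, adjusted p = 0.184), Fgf23 at -0.99 (SE 0.37, adjusted p = 0.287) and Fgf17 at 2.19 (SE 0.78, adjusted p = 0.290). DESeq2 called 1140 genes (7.35% of those given an adjusted p) and 3 of the 27 members given one. These were Dusp6 (1.09, SE 0.22, adjusted p = 8.17e-05), Fgf17 (2.19, SE 0.74, adjusted p = 0.0443) and Etv4 (-1.08, SE 0.37, adjusted p = 0.0498). The widest differences had the widest errors: Fgf3 at -4.04 (SE 1.86), Fgf15 at -3.26 (SE 1.48) and Fgf10 at -2.40 (SE 1.21), whose adjusted p values were 0.427, 0.422 and 0.467. Fgfr1 stood at 0.70 (SE 0.35, adjusted p = 0.454) and Fgfr3 at -0.90 (SE 0.42, adjusted p = 0.408).

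Since the WT samples differed so much in these genes, the comparison was repeated against each WT sample alone. The lone WT sample was assumed to vary as the KO samples do. That did not hold: 9.74% of tested genes differed at least 2-fold between the WT samples and 3.81% between the KO samples. The adjusted p values of these fits leave out the WT spread, which was wide for Fgf3, Fgf4 and Fgf15. The fits held 31 members against WT B and 29 against WT A. Against WT B, 8 members passed, 5 lower and 3 higher in KO, beside 8.93% of all genes. The lower ones were Fgf3 (-5.02, SE 0.43, edgeR adjusted p = 0.00069), Fgf15 (-4.20, SE 0.36), Etv4 (-1.40, SE 0.27), Fgfr3 (-1.37, SE 0.25) and Fgf8 (-1.19, SE 0.29, adjusted p = 0.0181). The higher ones were Fgf4 (1.83, SE 0.24), Dusp6 (1.13, SE 0.21) and Etv5 (0.61, SE 0.18, adjusted p = 0.0455). Fgf10 stood at -3.28 (SE 0.57) and did not pass (adjusted p = 0.115).

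Against WT A, 6 members passed, 2 lower and 4 higher in KO, beside 9.73% of all genes. Fgf4 (-1.31, SE 0.19, edgeR adjusted p = 0.000695) and Etv5 (-0.86, SE 0.18, adjusted p = 0.00813) were lower. Fgfr1 (1.30, SE 0.21, adjusted p = 0.00152), Dusp6 (1.04, SE 0.22, adjusted p = 0.00985), Fgfr2 (0.76, SE 0.20, adjusted p = 0.0292) and Spred1 (0.72, SE 0.18, adjusted p = 0.0244) were higher. Fgf4 and Etv5 thus passed in opposite directions against the 2 WT samples. Dusp6 was the 1 member that passed both times in the same direction, as did 3.46% of the genes tested in both. As 1 of 29 tested members, Dusp6 made up a share near that of all genes. Fgf3, Fgf10 and Fgf15 had log2 fold changes of 0.47, 0.13 and 0.06 against WT A, with standard errors of 0.65, 0.47 and 0.53. Without KO A or without KO B 0 members and 0 genes passed, and 2 and 1 members, of 1704 and 1106 genes, had an unadjusted p under 0.05.

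**Figure D5:**
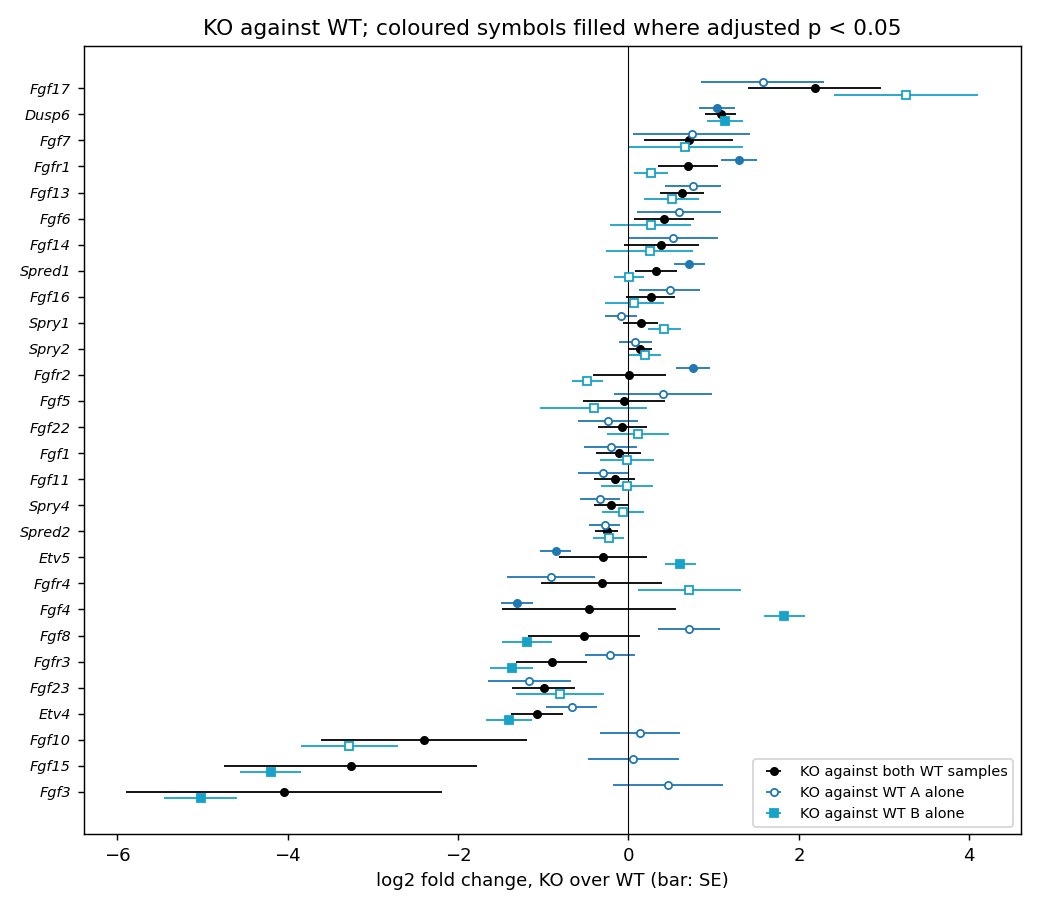
Log2 fold change of KO over WT with its SE for 28 members, against both WT samples (black), WT A alone (circles) and WT B alone (squares), the coloured symbols filled where the edgeR adjusted p is under 0.05. Dusp6 lies near 1 in all 3 comparisons, and Fgf4 lies at -1.31 against WT A and 1.83 against WT B.

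Other parts of the pathway were described from fixed lists. Of 24 tested co-receptor and heparan sulphate genes 0 passed by edgeR, 7 were higher and 0 lower at p under 0.05 before adjustment, and DESeq2 called 5, all higher, beside 15.5% and 7.35% of all genes in either direction; the list's median log2 fold change was 0.24. Sulf1, a sulphatase that trims heparan sulphate outside the cell, stood at 40.6, 59.3, 115.5 and 133 CPM (1.31, SE 0.21, adjusted p = 0.105). Gpc3, a heparan sulphate proteoglycan, shared the WT B peak of Fgf10, at 117, 507, 94.5 and 102 CPM (-1.67, SE 0.74, adjusted p = 0.407). Sulf2 stood at 0.19 (SE 0.17).

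The transducers from receptor to ERK went both ways. Of 22 tested genes 0 passed by edgeR, before adjustment 3 lower and 2 higher were under 0.05, by DESeq2 1 passed in each direction (all genes 15.5% and 7.35%), and the median was 0.08. KO and WT samples did not overlap for 10 of the 22, beside 45.6% of all genes. Nf1, a RAS inhibitor, had a log2 fold change of -0.67 (SE 0.18, adjusted p = 0.177), and the adaptor gene Gab1 0.77 (SE 0.37, adjusted p = 0.429). No chromosome median was subtracted from the values of list genes. The medians of chromosomes 11 and 8 were -0.47 and 0.25, so these 2 values may not be particular to the genes.

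Further ERK feedback and early response genes had a median log2 fold change of 0.48, beside -0.01 over all genes. Of 17 tested, 0 passed by edgeR, before adjustment 8 higher and 0 lower were under 0.05, and DESeq2 passed 4, all higher, against the same 15.5% and 7.35% of all genes. Spred3, a relative of Spred1 and Spred2, stood at 6.79, 5.40, 15.4 and 17.6 CPM (1.44, SE 0.22, adjusted p = 0.100). Dusp9, an ERK phosphatase like Dusp6, stood at 65.9, 121, 205 and 302 CPM (1.44, SE 0.37, adjusted p = 0.183). Ccnd1, the cyclin D1 gene, had a log2 fold change of 0.38 (SE 0.15).

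Marker lists of the cells that the Flk1 gate could hold gave the setting of these values. Of 13 tested blood markers 5 fell and 0 rose, beside 0.185% of all genes, among them Plek (-6.13, SE 0.23, edgeR adjusted p = 0.00539) and Itga2b (-4.17, SE 0.20), and their summed level was 284, 333, 77.8 and 51.8 CPM. Before adjustment all 13 were lower at p under 0.05, and DESeq2 passed 11. In this list Hbb-bh1 had 0 reads in both KO samples and Hbb-y in KO B. Neurog2, of the neuroectoderm list, had 0 reads in KO A. Of 5 tested neuroectoderm markers Nes rose (1.29, SE 0.13, adjusted p = 0.0493), 2 were higher before adjustment and DESeq2 passed 1. None of 12 endothelial, 10 visceral endoderm, 15 primitive streak, 14 pluripotency or 12 cardiac and smooth muscle markers passed by edgeR. Before adjustment 4 endothelial, 2 visceral endoderm, 1 streak and 2 pluripotency markers were lower at p under 0.05, and 1 streak and 4 muscle markers higher. DESeq2 passed 1 endothelial and 2 pluripotency markers as lower and 1 streak and 4 muscle markers as higher. The shares of all genes were 15.5% before adjustment and 7.35% by DESeq2. The summed endothelial level was 1480, 1220, 900 and 416 CPM, and that of visceral endoderm markers 170, 96.5, 86.4 and 44.0 CPM. The part of these markers in the FGF values was not tested.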

How the data were processed

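RNA-seq of Flk1-sorted Ldb1+/+ and Ldb1-/- cells was available as 1 deposited table of raw counts by Ensembl gene ID for 4 libraries per genotype with a transcript length for each gene, per the file headers. The submitters' processing notes name mm9 and DESeq; aligner, counter, strand setting and annotation were not given in the sources used here. A deposited Ldb1 peak list from day 4 embryoid bodies was not used here, as no mm9 gene annotation was at hand. Symbols were found for 20362 of 21868 genes.

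The members and the 10 gene lists (152 entries, 150 in the table) were chosen with earlier results of these data known. Library pairs were compared by a chi-square for each gene that had 20 or more reads in both together, then summed (WT A 23182551, WT B 26221496, KO A 22674679, KO B 26775787 counts). Genes kept by filterByExpr (16785, including 29 members) were scaled by TMM and tested with edgeR 4.0.16 (robust quasi-likelihood) in R 4.3.3. Each SE was taken from the fold change and the F statistic. Ratios of B to A carry exact binomial 95% intervals on the raw counts; for counts over all genes 0.05 CPM was added. Chromosome medians used genes above a log2 CPM of 3, placed by RefSeq GRCm38.p6. The edgeR script was tested on simulated counts. Members reaching 1 CPM in a sample were given with their values; from each list, genes were named among those past the test (up to 4), the 2 with the highest mean and the 2 with the largest absolute change among genes reaching 5 CPM. Alternatives tried were DESeq2 1.42.0, limma-voom (limma 3.58.1), scaling by RLE, by the upper quartile or by library size, other filters, a replicate block, 8 separate libraries, and leaving out each library or sample. The labels do not say whether replicate numbers pair the samples, and the main fit did not treat them as paired. Python 3.11.15, scipy 1.17.1, pandas 2.3.3, numpy 2.4.6 and matplotlib 3.10.9 were used.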

Additional observations from a re-analysis of the deposited data

Results flagged for a closer look

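For 10 members the step from sample A to sample B ran in opposite directions in WT and KO, with both 95% counting intervals clear of 0. The share of all genes that did so was not counted, so this number shows nothing particular to the FGF genes. Each side is 1 sample against 1, and the labels do not say whether samples of the same letter belong together. The difference between the genotypes was not tested. The log2 of B over A was 5.479 in WT and -1.41 in KO for Fgf3, 4.248 and -1.009 for Fgf15, and 3.397 and -1.13 for Fgf10. It was 1.888 and -0.496 for Fgf8, 0.8 and -1.157 for Fgf5, 1.232 and -0.16 for Fgfr2, and 0.696 and -0.089 for Spred1. The order was the other way for Fgf4 (-3.15 in WT and 0.284 in KO), Fgf17 (-1.708 and 1.486) and Fgfr4 (-1.649 and 1.327). For Spred1 in KO 1 pairing of single libraries gave 0.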

How the results depend on the processing

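Depth limited Fgf9, Fgf12, Fgf20 and Fgf21, which had too few reads to be tested; Fgf12 and the 4 ligands under 1 CPM are not interpreted. The count of FGF members past the edgeR test was 0 under RLE, upper quartile and library size scaling, limma-voom, no or a stricter filter on low counts and with the replicate block, and 3 by DESeq2. With 8 libraries fitted as replicates, which counts each sample more than once, it was 6. Leaving out a library or sample gave 0 to 8 members, 8 without WT A and 6 without WT B. Over all genes the count of 31 became 1140 by DESeq2, 3 by limma-voom, 151 with no filter on low counts, 5 with a filter of 1 CPM in 2 samples, 5 with the replicate block and 3860 with 8 libraries, and leaving out a library or sample gave 0 to 1674. The 6 list genes past the test became 31 by DESeq2, 2 by limma-voom and 2 with the replicate block. The replicate block changed no member's call. B minus A in WT and in KO correlated at r = -0.08 across 16785 genes, which are not independent replicates. With 1 difference per genotype this cannot tell whether samples of the same letter shared a culture or batch.

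Of the members' log2 fold changes, 31 alternative values had the other sign, 23 of them when a library or sample was left out and 3 with the chromosome median subtracted (Fgf11 0.308, Spred2 0.216 and Fgfr2 -0.026). Leaving out gave -5.02 to 0.47 for Fgf3, -4.20 to 0.058 for Fgf15, -3.28 to 0.13 for Fgf10, -1.31 to 1.83 for Fgf4, -0.86 to 0.61 for Etv5 and -1.19 to 0.71 for Fgf8. It gave -0.49 to 0.76 for Fgfr2, -1.13 to 0.72 for Fgfr4, -0.74 to 0.41 for Fgf5, -0.089 to 0.42 for Spry1, -0.38 to 0.11 for Fgf1, -0.15 to 0.78 for Fgf14 and -0.24 to 0.12 for Fgf22. Fgf4 was at 0.30 by limma-voom and 0.22 with the replicate block. Fgfr2, at 0.01, was at -0.017 with upper quartile scaling, -0.019 with library size scaling and -0.004 with the stricter filter. Fgfr1 in KO had a B over A log2 of -0.035 with library size scaling against 0.06, and Spred1 in KO 0 between libraries 4 and 2. The cause of these shifts was not tested. Dusp6 stayed between 0.85 and 1.29 under every alternative run.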
